A study of Mus musculus with 2 samples.

Results

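Fibro-adipogenic progenitors are the interstitial mesenchymal cells of skeletal muscle, and 10 genes that mark them in mouse were followed among the 34745 genes of the deposited count table. The members are Pdgfra, Ly6a, Cd34, Dpp4, Pi16, Gsn, Cxcl14, Cd55, Clec3b and Ackr3, and each was found in the table by matching its symbol to an Ensembl identifier. RNA of whole gastrocnemius, a calf muscle, from C57BL/6 mice aged 8 weeks was sequenced as 1 CIPC-scko library (called scKO here) and 1 CIPC-flox/flox library (called flox/flox). The series title describes removal of Cipc, which encodes an inhibitor of the clock factors CLOCK and BMAL1, in satellite cells, the muscle stem cells. It also names mdx mice, but neither library is labelled mdx. The labels do not give the Cre driver of the deletion, nor whether several animals were pooled.

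These progenitors lie between the muscle fibres and carry the receptor PDGFRα. After injury they support satellite cells with secreted factors, and in diseased muscle they can turn into fibroblasts or fat cells. Fibroblasts that carry DPP4 and PI16 are a recurring subset of this lineage in mouse tissues, and a subset rich in Cxcl14 is another. Satellite cells are a separate lineage of the same tissue.

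The libraries held 13842100 counts in scKO and 14727219 counts in flox/flox. Cipc itself had 111 counts in scKO and 658 in flox/flox, a log2 ratio of −2.51 (−2.82 to −2.22). In this RNA of whole muscle its level was thus 82.5% lower, and which cells of the muscle had lost Cipc was not tested. Fast fibre genes were abundant in both libraries, with 605139 counts of the myosin gene Myh4 in scKO and 700136 in flox/flox. Mitochondrially encoded genes held 25.7% of the counts in each library. With 1 library per genotype no difference below has a replicate check, and each compares these libraries rather than the genotypes. Ratios are scKO over flox/flox on a log2 scale, after scaling for library size, and the bracketed 95% intervals cover counting error only. In RNA of whole muscle, fewer cells of a type and less RNA per cell cannot be told apart.

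The upstream sequence of 3 members is shown because they carry the lowest ratio (Pdgfra), the highest ratio (Ackr3) and the most counts among the surface markers with an interval below 0 (Cd55). Each is the 250 bases before a RefSeq start site on GRCm38.p6, read along the gene. The Pdgfra stretch is chr5:75152001-75152250 on the plus strand, that of Ackr3 is chr1:90203730-90203979 on the plus strand, and that of Cd55 is chr1:130462745-130462994 on the minus strand. Capitals mark short promoter motifs, which were searched on both strands and do not overlap in these stretches. The GC box was searched as GGGCGG. The TATA box was searched as TATAAA. The remaining motif was CCAAT.
Pdgfra: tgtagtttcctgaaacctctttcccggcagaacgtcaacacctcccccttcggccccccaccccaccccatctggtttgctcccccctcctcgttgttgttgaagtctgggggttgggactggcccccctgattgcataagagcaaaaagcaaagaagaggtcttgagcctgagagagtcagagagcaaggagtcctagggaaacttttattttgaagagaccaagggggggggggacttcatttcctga
Ackr3: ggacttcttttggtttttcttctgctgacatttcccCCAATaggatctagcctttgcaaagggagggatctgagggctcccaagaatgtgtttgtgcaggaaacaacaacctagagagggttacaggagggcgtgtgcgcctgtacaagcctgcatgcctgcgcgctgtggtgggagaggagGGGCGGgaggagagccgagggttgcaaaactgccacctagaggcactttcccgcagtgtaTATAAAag
Cd55: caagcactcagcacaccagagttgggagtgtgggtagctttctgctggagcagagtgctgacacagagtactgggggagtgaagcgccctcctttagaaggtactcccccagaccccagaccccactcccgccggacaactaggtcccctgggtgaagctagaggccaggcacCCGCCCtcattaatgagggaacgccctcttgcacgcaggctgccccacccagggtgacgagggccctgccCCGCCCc

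RefSeq windows of 250 bases before and 50 after the start were matched for 8 members, with 3 start sites for Gsn and 10 windows in all; Ly6a and Clec3b were not matched. The E-box CACGTG, the motif that CLOCK and BMAL1 bind, stood in 0 of the 10 windows, and in 7.15% of all 32851 windows of the table. A GC box stood in 6 of the 10 windows and in 35.7% of all. A TATA box stood in 2 and in 13.6% of all, and a CCAAT box in 4 and in 37.4% of all. In the stretches printed above, Pdgfra had none of these motifs, Ackr3 had 1 GC, 1 TATA and 1 CCAAT box, and Cd55 had 2 GC boxes. Those matches describe letters in a short window and do not show binding.

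Pdgfra, Clec3b, Cd55, Cd34 and Gsn were lower in the scKO library, and the other 5 markers were not separable from no change. Of the 10 members, 8 had a negative log2 ratio and 2 a positive one, and the members ranged from −0.45 for Pdgfra to 0.17 for Ackr3. The interval lay below 0 for 5 members, above 0 for 0 members, and included 0 for 5. Across all 12662 genes with at least 20 summed counts, 12.3% had an interval below 0 and 12.8% one above. Genes with more counts have narrower intervals; among the 9280 genes within the members' range of summed counts, 116 to 13964, 13.0% lay below 0 and 14.6% above. The median over the members was −0.18, against 0.0021 over all tested genes, and 49.6% of all tested genes had a negative ratio. None of the members was at least 2-fold apart with an interval that excluded 1 (0 of 10), as 3.40% of tested genes were. All 10 members passed the minimum of 20 summed counts.

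**Figure D1:**
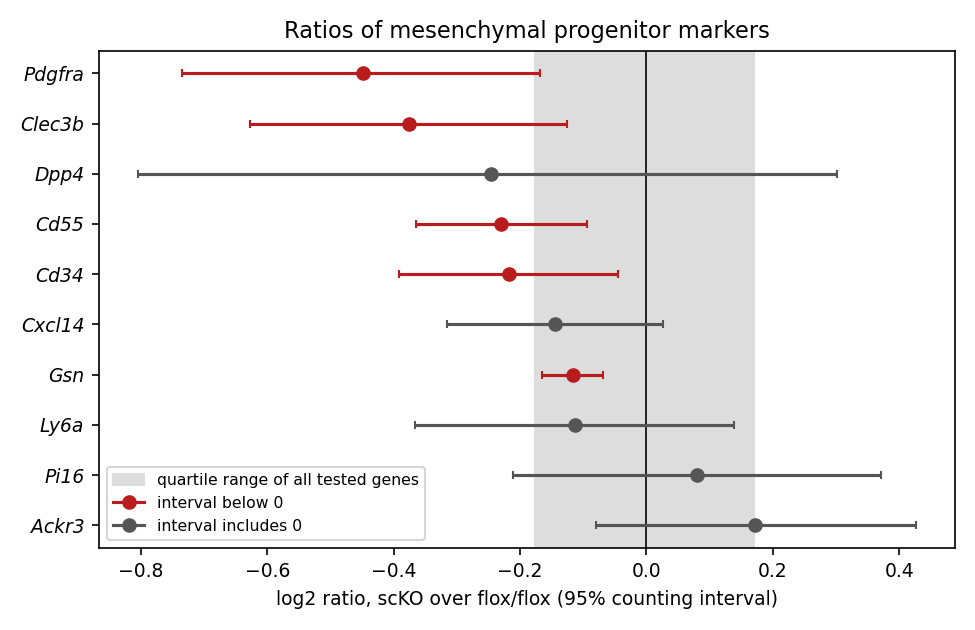
Log2 ratio of scKO over flox/flox for the 10 members (points) with 95% counting intervals (bars), 1 library per genotype. The grey band spans the quartiles of all 12662 tested genes, −0.18 to 0.17; Pdgfra and Clec3b lie farthest to the left at −0.45 and −0.38, and Pi16 and Ackr3 are the members to the right of 0.

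The receptor that defines the lineage had the lowest ratio of the members. Pdgfra (ENSMUSG00000029231, chromosome 5, 75152292 to 75198215, plus strand) encodes a receptor tyrosine kinase for platelet-derived growth factors. It had 178 counts in scKO and 252 in flox/flox, or 12.9 CPM in scKO and 17.1 CPM in flox/flox, where CPM is the count scaled to the library total. The log2 ratio was −0.45 (−0.74 to −0.17), a fold of 0.732 (0.601 to 0.890), and 9.58% of tested genes had a lower ratio. The Poisson intervals of its level did not overlap, at 11.0 to 14.9 CPM in scKO and 15.1 to 19.4 CPM in flox/flox.

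The other genes of this pathway had intervals that include 0. Pdgfrb, the receptor of pericytes and fibroblasts alike, had 480 counts in scKO and 444 in flox/flox (0.16, −0.026 to 0.35); scaled by total counts its interval lay above 0 (0.20, 0.013 to 0.39). Pdgfa, a ligand of PDGFRα, had 223 counts in scKO and 214 in flox/flox (0.11, −0.17 to 0.39), and 26.1% of its exons overlap those of an antisense gene. Pdgfb, a ligand of both receptors, had 330 counts in scKO and 319 in flox/flox (0.10, −0.13 to 0.33). Pdgfc, another ligand of PDGFRα, had 8 counts in scKO and 10 in flox/flox, too few to be tested, and Pdgfd, a ligand of PDGFRβ, had 40 counts in scKO and 29 in flox/flox (0.51, −0.21 to 1.26). Pdgfrl, a receptor-like gene, had 8 counts in scKO and 19 in flox/flox (−1.15, −2.60 to 0.062). Of 5 tested genes in this list, 0 had an interval off 0 on either side, with a median of 0.11. Per count of Pdgfrb, Pdgfra had 0.371 counts in scKO and 0.568 in flox/flox. That ratio of ratios was 0.653 (0.515 to 0.829), a value that library scaling cannot change.

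Among the surface glycoproteins, Cd34 was lower and Ly6a was not separable from no change. Cd34 (ENSMUSG00000016494, chromosome 1, 194938819 to 194961279, plus strand) encodes a sialomucin of progenitors that endothelial and satellite cells carry too. It had 502 counts in scKO and 605 in flox/flox, or 36.3 CPM in scKO and 41.1 CPM in flox/flox (−0.22, −0.39 to −0.045). An antisense gene, Gm16897, shares 148 bases of its exons and had 0 counts in scKO and 12 in flox/flox; the strand setting of the counting is not given. Ly6a (ENSMUSG00000075602, chromosome 15, 74994877 to 74998031, minus strand) encodes the membrane-anchored protein Sca-1, another marker shared with endothelium. It had 248 counts in scKO and 278 in flox/flox, or 17.9 CPM in scKO and 18.9 CPM in flox/flox (−0.11, −0.37 to 0.14).

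Among relatives of Cd34, 2 of 4 tested genes had an interval above 0 and 1 one below, with a median of 0.23. Of the Ly6 family, 2 of 3 tested genes lay above 0 and 0 below, with a median of 0.11. Podxl, a sialomucin of the CD34 family, had 736 counts in scKO and 502 in flox/flox (0.60, 0.44 to 0.77). Podxl2, the other member of that family, had 551 counts in scKO and 410 in flox/flox (0.48, 0.29 to 0.67). Cd164 was slightly lower (−0.094, −0.18 to −0.0046), though not with scaling by total counts (−0.056, −0.15 to 0.034), and the endothelial sialomucin Emcn stood at −0.012 (−0.36 to 0.34). In the Ly6 family, Ly6c1, an endothelial marker in muscle, had 688 counts in scKO and 531 in flox/flox (0.42, 0.26 to 0.59). Lynx1 stood at 0.097 (0.016 to 0.18) and Ly6e at 0.11 (−0.13 to 0.34), and Ly6d, Ly6i, Ly6k and Ly6g6c had 0 counts in both libraries. Genes of the Ly6 cluster resemble each other in sequence, and the treatment of reads with more than 1 match is not stated. Per count of Pecam1, a marker of endothelium, Cd34 had 0.717 counts in scKO and 0.929 in flox/flox (ratio of ratios 0.772, 0.656 to 0.908). For Ly6a these were 0.354 in scKO and 0.427 in flox/flox (0.830, 0.675 to 1.02).

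The protease and the protease inhibitor of the DPP4 and PI16 subset gave intervals that include 0. Dpp4 (ENSMUSG00000035000, chromosome 2, 62330073 to 62412231, minus strand) encodes a surface peptidase that trims chemokines and hormones. It was the member with the fewest counts, 52 in scKO and 64 in flox/flox, or 3.76 CPM in scKO and 4.35 CPM in flox/flox (−0.25, −0.80 to 0.30). Pi16 (ENSMUSG00000024011, chromosome 17, 29317680 to 29330593, plus strand) encodes peptidase inhibitor 16 of the CAP superfamily. It had 201 counts in scKO and 197 in flox/flox, or 14.5 CPM in scKO and 13.4 CPM in flox/flox (0.080, −0.21 to 0.37). At the depth of these libraries the counts are compatible with any ratio within those intervals, by counting error alone.

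Of 7 tested genes of the DPP4 family and its substrates, 4 had an interval below 0 (Dpp8, Dpp6, Igf1 and Cav1) and 0 one above, with a median of −0.13. Fap, the closest relative of Dpp4 and a marker of reactive fibroblasts, had 73 counts in scKO and 83 in flox/flox (−0.13, −0.61 to 0.34). The cytoplasmic peptidase genes Dpp8 and Dpp9 stood at −0.12 (−0.20 to −0.044) and 0.14 (−0.033 to 0.30), and with scaling by total counts Dpp9 lay above 0 (0.17, 0.0055 to 0.34). Dpp6, which encodes a potassium channel partner without peptidase activity, had 24 counts in scKO and 45 in flox/flox (−0.84, −1.63 to −0.11). Among partners and substrates, the growth factor gene Igf1 had 233 counts in scKO and 288 in flox/flox (−0.25, −0.51 to −0.00040), and scaling by total counts ended that call (−0.22, −0.47 to 0.038). Cav1, which encodes caveolin 1, had 127 counts in scKO and 570 in flox/flox (−2.11, −2.40 to −1.84). Per count of Fap, Dpp4 had 0.712 counts in scKO and 0.771 in flox/flox (0.924, 0.554 to 1.54). The tested relatives of Pi16 and Clec3b, 5 of 10 listed, had 0 intervals off 0; the best counted, Crispld2, had 289 counts in scKO and 349 in flox/flox (−0.22, −0.45 to 0.0080), and with DESeq2 size factors its interval lay below 0 (−0.23, −0.46 to −0.0015).

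The chemokine and the chemokine receptor among the members had intervals that include 0. Cxcl14 (ENSMUSG00000021508, chromosome 13, 56288643 to 56296551, minus strand) encodes a secreted chemokine. It had 529 counts in scKO and 606 in flox/flox, or 38.2 CPM in scKO and 41.1 CPM in flox/flox (−0.14, −0.32 to 0.026). Ackr3 (ENSMUSG00000044337, chromosome 1, 90203980 to 90216751, plus strand) encodes an atypical receptor that takes up CXCL12. It had 272 counts in scKO and 250 in flox/flox, or 19.7 CPM in scKO and 17.0 CPM in flox/flox, the highest ratio of the members (0.17, −0.080 to 0.43). Its ligand gene Cxcl12 had 766 counts in scKO and 731 in flox/flox (0.12, −0.029 to 0.27), and scaled by total counts it lay above 0 (0.16, 0.0088 to 0.31). The signalling receptor gene Cxcr4 had 22 counts in scKO and 18 in flox/flox (0.33, −0.63 to 1.32). Another scavenger, Ackr2, had 22 counts in scKO and 7 in flox/flox (1.63, 0.43 to 3.17), the single gene with an interval off 0 among 5 tested of the chemokine list, whose median was 0.24. Per count of Cxcl12, Ackr3 stood at 0.355 in scKO and 0.342 in flox/flox (1.04, 0.846 to 1.27).

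Of the secreted and anchored effectors, Clec3b and Cd55 were lower. Clec3b (ENSMUSG00000025784, chromosome 9, 123150946 to 123157432, plus strand) encodes tetranectin, a lectin of plasma and matrix that binds plasminogen. It had 232 counts in scKO and 312 in flox/flox, or 16.8 CPM in scKO and 21.2 CPM in flox/flox (−0.38, −0.63 to −0.13), a fold of 0.771 (0.647 to 0.916). Cd55 (ENSMUSG00000026399, chromosome 1, 130439027 to 130462744, minus strand) encodes decay-accelerating factor, which breaks up the complement convertases on a cell's own surface. It had 814 counts in scKO and 989 in flox/flox, or 58.8 CPM in scKO and 67.2 CPM in flox/flox (−0.23, −0.37 to −0.095). Its near copy Cd55b had 0 counts in scKO and 4 in flox/flox.

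Of 11 other complement genes tested, 2 had an interval below 0 and 0 one above, and their median was −0.15. C1s1, the serine protease of the first complement complex, had 134 counts in scKO and 374 in flox/flox (−1.43, −1.73 to −1.14), which placed it among the 2-fold lower genes. Its partner protease C1ra had 93 counts in scKO and 129 in flox/flox (−0.42, −0.82 to −0.025), a call that scaling by total counts ended (−0.38, −0.78 to 0.013). The near copies C1s2 and C1rb had 0 counts in both libraries. The central component C3 stood at −0.10 (−0.33 to 0.12), and the inhibitor Serping1 at −0.17 (−0.36 to 0.027). The surface regulators other than Cd55 were not separable from no change, with Cd59a at −0.15 (−0.48 to 0.17) and Cr1l, the rodent regulator also called Crry, at 0.067 (−0.12 to 0.25). Per count of Cr1l, Cd55 stood at 1.74 in scKO and 2.13 in flox/flox (0.814, 0.693 to 0.957).

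Gsn carried most of the members' counts. Gsn (ENSMUSG00000026879, chromosome 2, 35256380 to 35307892, plus strand) encodes gelsolin, which cuts and caps actin filaments and has a secreted form; fibres and other muscle cells make it as well. It had 6576 counts in scKO and 7388 in flox/flox, or 475 CPM in scKO and 502 CPM in flox/flox. The log2 ratio was −0.12 (−0.16 to −0.069), a fold of 0.922 (0.892 to 0.954), and 31.8% of tested genes had a lower ratio. Gsn took 68.5% of the members' counts in scKO (exact binomial interval 67.5 to 69.4) and 67.5% in flox/flox (66.6 to 68.4). In its superfamily 1 of 5 tested genes had an interval below 0 and 0 one above, with a median of 0.022. Svil, which encodes the membrane actin linker supervillin, was lower with 4465 counts in scKO and 5828 in flox/flox (−0.33, −0.39 to −0.28), while Flii stood at 0.022 (−0.092 to 0.14). The actin capping gene Capg had 83 counts in scKO and 63 in flox/flox (0.45, −0.041 to 0.94), with an interval that includes 0.

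The summed level of the members was 694 CPM in scKO and 743 CPM in flox/flox (−0.14, −0.18 to −0.097). Without Gsn the sum was 219 CPM in scKO and 241 CPM in flox/flox (−0.18, −0.25 to −0.11). Without Ly6a and Cd34, both described above as shared with endothelium, the median was −0.19 and 4 of 8 intervals lay below 0. Whether endothelium also expresses any of those 8 members was not tested.

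Per unit of gene length, the order of the members was nearly the same in both libraries. On the deposited FPKM scale, fragments scaled by gene length and by library size, Gsn led with 108 in scKO and 114 in flox/flox, above 98.6% of the genes detected in scKO and 98.8% of those in flox/flox. Cxcl14 followed at 20.96 in scKO and 22.57 in flox/flox, and Clec3b at 16.9 in scKO and 21.4 in flox/flox; the counting intervals of this pair overlapped in each library. Cd55 stood at 9.45 FPKM in scKO and 10.8 in flox/flox, apart from its neighbours. Ackr3 (5.66 FPKM in scKO, 4.89 in flox/flox) and Ly6a (5.19 in scKO, 5.47 in flox/flox) exchanged places between the libraries, with overlapping intervals in each. Cd34 was next at 3.69 FPKM in scKO and 4.18 in flox/flox, where its interval overlapped that of Ackr3. Pi16 (1.95 FPKM in scKO, 1.79 in flox/flox), Pdgfra (0.859 in scKO, 1.14 in flox/flox) and Dpp4 (0.524 in scKO, 0.606 in flox/flox) closed the order, each apart from the next.

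**Figure D2:**
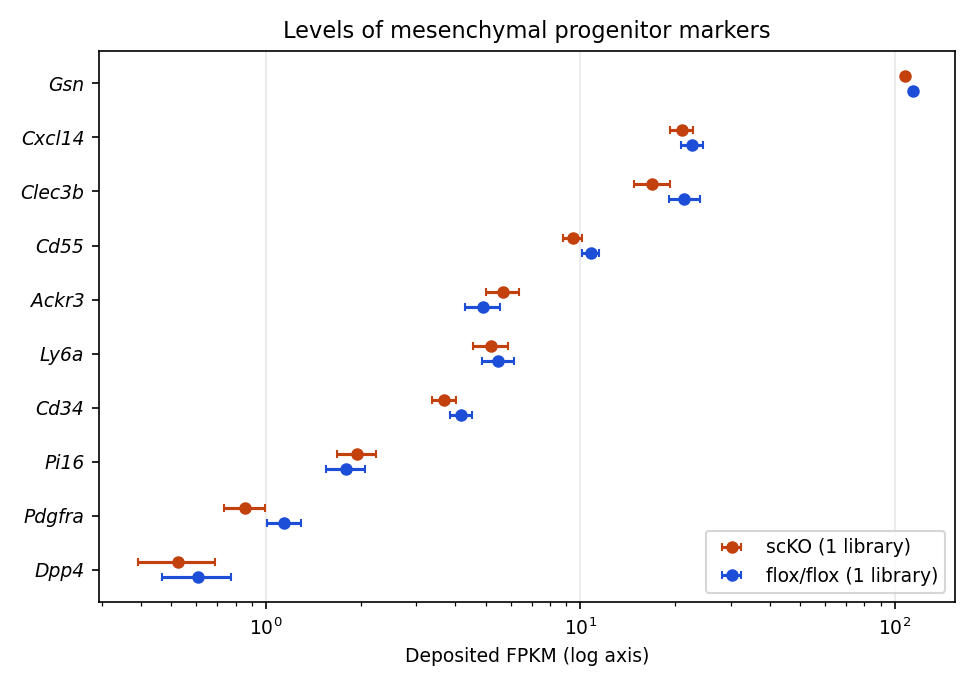
Deposited FPKM of the 10 members on a log axis in scKO (upper point of each gene) and flox/flox (lower point), with 95% Poisson intervals from the counts, 1 library each. Gsn lies at 108 in scKO and 114 in flox/flox and Dpp4 at 0.524 in scKO and 0.606 in flox/flox, and the order is shared except for the neighbours Ackr3 and Ly6a.

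The length behind the FPKM matters for that order. For Ly6a the FPKM implied a length of 3452 bases, while its merged exons in GENCODE M21 span 1205 bases. The sum of its distinct exons, with overlapping exons each counted in full, is also 3452 bases. The implied length likewise equalled that sum for Pdgfra, Cd34, Dpp4, Gsn, Cd55 and Ackr3, but not for Pi16, Cxcl14 and Clec3b. Per kilobase of merged exons Ly6a stood at 14.9 CPM in scKO and 15.7 in flox/flox, rank 4 among the members in both libraries and ahead of Cd55 at 12.1 in scKO and 13.8 in flox/flox. Pdgfra had an implied length of 14968 bases against 10024 merged, which gave 1.28 CPM per kilobase in scKO and 1.71 in flox/flox and left it at rank 9. The ratio between the libraries for 1 gene does not depend on its length.

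Pairs of members were compared within each library, which removes the scaling; this comparison was chosen after the values were seen. Of 45 pairs, 10 had a 95% interval of the ratio of ratios that excluded 1, and Ackr3 was in 6 of them, Pdgfra in 3, Clec3b in 3 and Pi16 in 2. Per count of Ackr3, Pdgfra stood at 0.654 in scKO and 1.01 in flox/flox (ratio of ratios 0.649, 0.498 to 0.847). Per count of Ackr3, Clec3b stood at 0.853 in scKO and 1.25 in flox/flox (0.683, 0.533 to 0.877). Per count of Pi16, Pdgfra stood at 0.886 in scKO and 1.28 in flox/flox (0.692, 0.521 to 0.920). The pairs share genes and libraries and are not independent of each other. The share of such pairs among all tested genes was not computed, so the count of 10 has no background beside it.

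**Figure D3:**
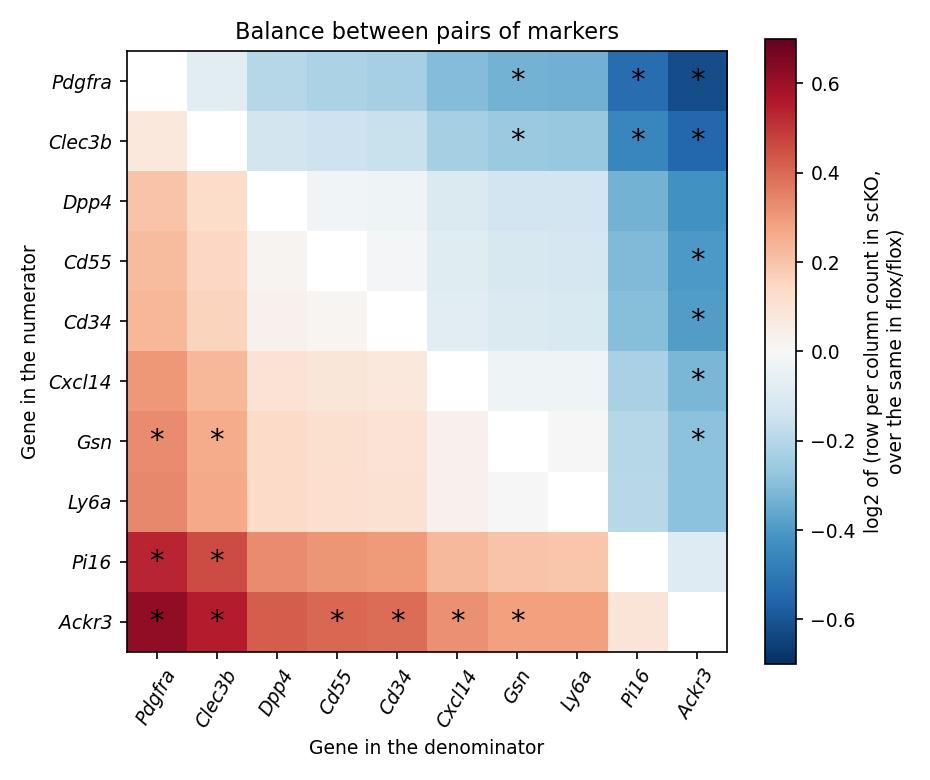
Log2 of the count ratio of the row gene to the column gene in scKO, over the same ratio in flox/flox, for all 45 pairs of members; stars mark the 10 pairs whose 95% interval excludes a ratio of 1. The value farthest from 0 is that of Pdgfra per Ackr3, a ratio of 0.649.

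Other mesenchymal genes were described by subset. Of 15 tested genes that go with the DPP4 and PI16 subset, 3 had an interval below 0 and 3 one above, with a median of −0.051. Fbn1, which encodes the microfibril protein fibrillin 1, had 244 counts in scKO and 434 in flox/flox (−0.78, −1.01 to −0.55), and Cd248, the stromal marker endosialin, had 67 counts in scKO and 99 in flox/flox (−0.51, −0.98 to −0.050). Igfbp5, which held most of the list's counts, was also lower, with 8368 counts in scKO and 9539 in flox/flox (−0.14, −0.18 to −0.095). The guidance factor gene Sema3c was higher, with 574 counts in scKO and 519 in flox/flox (0.20, 0.023 to 0.37), as were Tppp3 (0.24, 0.021 to 0.45) and Pcsk6 (0.28, 0.0095 to 0.56), the last not with DESeq2 size factors (0.27, −0.000052 to 0.55). Wnt2, a ligand that marks this subset in some mouse tissues, had 0 counts in both libraries.

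Of 13 tested genes that go with the Cxcl14 subset, 4 had an interval below 0 and 1 one above, with a median of −0.21, and 11 of the 13 ratios were negative. Col15a1, a collagen of basement membrane zones, had 385 counts in scKO and 588 in flox/flox (−0.56, −0.75 to −0.37). Another collagen gene, Col4a1, with the most counts of this list, had 1145 in scKO and 1511 in flox/flox (−0.35, −0.46 to −0.24). Ccl11, the eosinophil chemokine eotaxin, had 205 counts in scKO and 271 in flox/flox (−0.35, −0.62 to −0.084), and Smoc2, a matrix protein gene, 833 counts in scKO and 966 in flox/flox (−0.16, −0.30 to −0.027), which total counts moved to an interval that includes 0 (−0.12, −0.26 to 0.011). G0s2, an inhibitor of fat breakdown that adipocytes and fibres make too, was higher with 153 counts in scKO and 95 in flox/flox (0.74, 0.36 to 1.12).

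Of 20 pan-mesenchymal genes, 6 had an interval below 0 and 0 one above, with a median of −0.11. The proteoglycan gene Dcn, with 3264 counts in scKO and 3685 in flox/flox, stood at −0.12 (−0.19 to −0.056), and the collagen gene Col1a1 at −0.45 (−0.61 to −0.30). The collagen genes Col3a1 (−0.62, −0.71 to −0.52) and Col1a2 (−0.29, −0.40 to −0.17) were lower too. Scaling by total counts ended the calls of Mfap4 (−0.89, −1.91 to 0.029) and Serpinf1 (−0.22, −0.45 to 0.0041). Osr1, a transcription factor of embryonic and reactive progenitors, had 19 counts in scKO and 23 in flox/flox (−0.22, −1.18 to 0.72). Per count of Dcn, Pdgfra stood at 0.0545 in scKO and 0.0684 in flox/flox (0.797, 0.651 to 0.976), while for Clec3b the interval included 1 (0.840, 0.701 to 1.005).

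Of 10 tested genes of activated or injury-state fibroblasts, 2 had an interval above 0 and 0 one below, with a median of 0.24. The alarmin gene Il33, which progenitors secrete, had 66 counts in scKO and 35 in flox/flox (0.96, 0.35 to 1.60), and the collagen gene Col8a1 87 counts in scKO and 52 in flox/flox (0.79, 0.28 to 1.32). Periostin (Postn) stood at 0.35 (−0.11 to 0.82), and Acta2 at 0.13 (−0.064 to 0.33). The injury genes Adam12, Timp1, Tnc, Cthrc1 and Il6 were too low to be tested, with at most 6 counts in either library.

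Markers of other cell types were counted in the same way. Of 15 endothelial markers, 6 had an interval above 0 and 0 one below, and their summed level was 829 CPM in scKO and 712 CPM in flox/flox. Fabp4 is in this list and in the adipocyte list, and counts toward both sums. With DESeq2 size factors the interval of the endothelial marker Cdh5 included 0. With total counts those of Pecam1, Vwf and Eng lay above 0. The adipocyte list had 4 of 12 above 0 and 0 below; Lpl, Fabp4, Dgat2 and Scd1, which other cells of muscle express too, made up those 4, and its summed level was 1224 CPM in scKO and 1026 CPM in flox/flox. The defining fat cell gene Adipoq had 55 counts in scKO and 52 in flox/flox (0.13, −0.44 to 0.71). Smooth muscle and pericyte markers had 3 above and 3 below of 12, at 3343 CPM in scKO and 3182 CPM in flox/flox. Their ratios ranged from −1.99 to 0.26, with 1 gene at least 2-fold lower. The sum includes Des, which fibres express, so it is not a level of smooth muscle cells and pericytes alone. The part of these cell types in the members' ratios was not tested.

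Tendon markers, another collagen source, had 2 above and 1 below of 8 tested, at 45.2 CPM in scKO and 42.1 CPM in flox/flox. Each of those calls was at least 2-fold, as 3.40% of all tested genes were, and the ratios ranged from −1.03 to 1.72. The tendon gene Mkx had 0 counts in scKO and 4 in flox/flox. Macrophage markers had 2 above and 1 below of 11, at 56.3 CPM in scKO and 50.7 CPM in flox/flox. Their ratios ranged from −1.21 to 0.65, and Cx3cr1, too low to be tested, had 3 counts in scKO and 0 in flox/flox. Satellite cell markers had 1 above and 2 below of 12, with ratios from −0.76 to 0.60. Their sum, 2748 CPM in scKO and 2617 CPM in flox/flox, is mostly Des, which fibres express. Nerve sheath markers had 0 above and 2 below of 8, at 85.0 CPM in scKO and 91.1 CPM in flox/flox. Their ratios ranged from −1.48 to 0.25, with 1 gene at least 2-fold lower. Of 12 fast fibre genes, 10 had an interval below 0 and 2 above, and of 10 slow fibre genes 7 lay below and 1 above. The fast list summed to 2075231 counts in scKO and 2312639 in flox/flox, so even small differences gave intervals off 0. A share of calls among genes of such high counts was not computed. The medians were −0.10 for the fast and −0.19 for the slow genes. Of the slow genes 1 was at least 2-fold lower, and their lowest ratio was −1.04. Scaled by total counts, the fast fibre genes Mylpf and Myh2 lay above 0 in place of below it, and the intervals of the fast gene Tnni2 and the slow gene Tnnt1 included 0. Epithelial genes were near 0, with Krt8, Krt14 and Epcam at 0 counts in both libraries. Lymphocyte and mast cell markers had 1 above and 1 below of 5 tested, each at least 2-fold apart, with ratios from −1.46 to 1.20. The T cell gene Cd3e had 0 counts in both libraries. Ighm, with 1717 counts in scKO and 772 in flox/flox, held most of the sum of 130 CPM in scKO and 61.2 CPM in flox/flox.

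**Figure D4:**
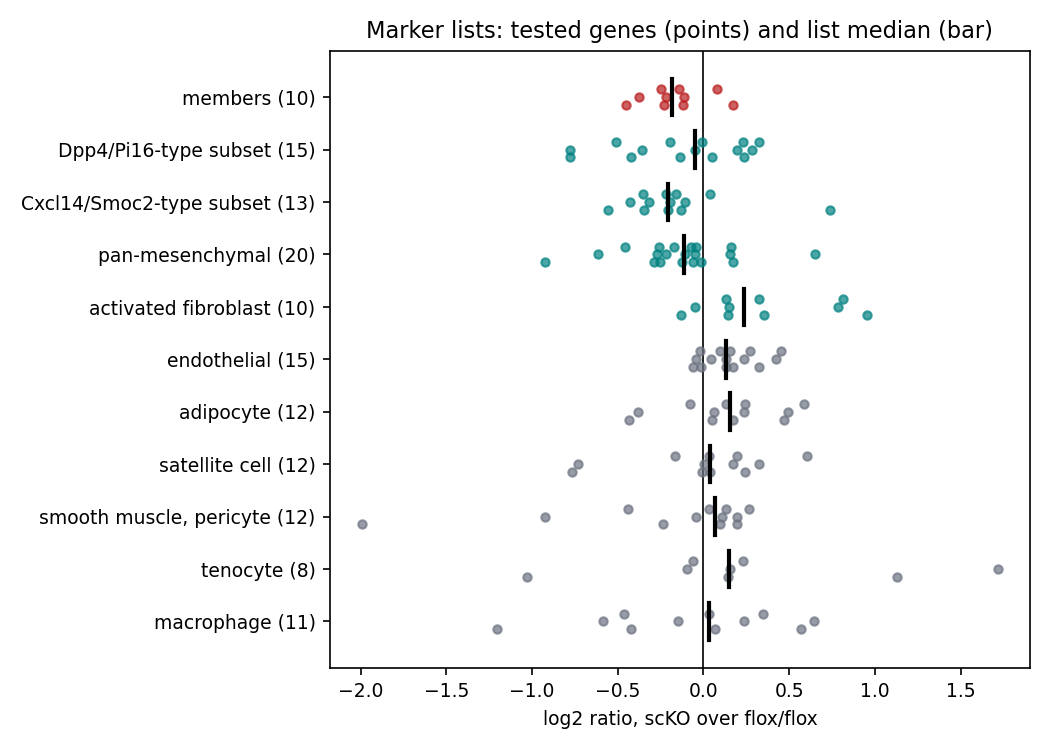
Log2 ratios of scKO over flox/flox for the tested genes (points) of 11 marker lists, with the list median as a black bar and the number of tested genes in brackets. The members centre at −0.18 and the genes that go with Cxcl14 at −0.21, while activated fibroblast genes centre at 0.24 and endothelial genes at 0.13.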

How the data were processed

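Whole-muscle RNA was sequenced as 1 scKO and 1 flox/flox library. The deposited table holds whole-number counts per Ensembl gene, and the authors also deposited FPKM values for each library, per the file headers. CASAVA, HISAT2 2.0.4, StringTie 1.3.0 and the build GRCm38 are named in the submitters' processing notes, without a role; counting options, strand and multi-mapping rules are not given in the sources used here. Names came from a reference table that matched 34267 of 34745 identifiers; positions and exons came from GENCODE M21 (GRCm38), promoter windows from RefSeq (GRCm38.p6).

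Counts were scaled with TMM (edgeR 4.0.16, R 4.3.3). Log2 ratios used a prior count of 0.5; 95% intervals are exact conditional binomial (Clopper-Pearson), level intervals exact Poisson. They cover counting error only. For a gene at 0 counts the floor was set at 3 counts, 0.217 CPM in scKO and 0.204 CPM in flox/flox; the Poisson interval, with error on both sides, reaches 0.266 CPM in scKO and 0.250 CPM in flox/flox. Genes needed 20 summed counts. A gene was counted as 2-fold apart where scaled counts differed at least 2-fold and the interval excluded 1. Intervals of pairs are those of the conditional odds ratio. No p-value was computed, since 1 library per genotype gives no spread between animals. The procedure was also run on simulated counts that held counting error only, so that run cannot show how it handles differences between animals.

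The members and the 23 other gene lists were chosen with earlier results of these data known. Genes named were the members, Cipc, genes of the lists of their relatives with at least 20 summed counts or at 0, and from each other list up to 6 tested genes with the largest absolute ratio and up to 4 with the most counts. Any other gene named was chosen after its values were seen. The tools were Python 3.11.15, numpy 2.4.6, scipy 1.17.1, pandas 2.3.3 and matplotlib 3.10.9; DESeq2 1.42.0 size factors served as an alternative.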

Additional observations from a re-analysis of the deposited data

How the results depend on the processing

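Scaling by DESeq2 size factors, by total counts, by total counts without mitochondrially encoded genes, or by total counts without the 20 most abundant genes (the last added after seeing the data) left 5 members with an interval below 0 and 0 above. The median of the members ranged from −0.22 to −0.14 over 10 alternatives, which included a prior count of 5, the deposited FPKM, other count minimums and leaving out Gsn or Ly6a and Cd34. The ratio of Pdgfra ranged from −0.46 to −0.37, and no member changed direction under the 6 alternatives run for single genes. Total counts moved the median of all tested genes to 0.040, from 0.0021 with TMM. Of 83 calls among 204 tested genes of all lists, intervals came to include 0 for 2 with DESeq2 size factors, 9 with total counts, 10 without mitochondrially encoded genes and 6 without the 20 most abundant genes. New calls numbered 1, 7, 7 and 2 in the same order. With total counts, Myh2 (0.017) and Mylpf (0.024) also turned to the other side of 0. List medians changed sign in 2 cases, that of tenocytes without a filter (−0.063) and that of lymphocytes and mast cells at a minimum of 100 counts (1.20), where Ighm was the gene left. No paired analysis was possible because each genotype has 1 library and the labels give no replicate numbers. Counting intervals leave out differences between animals, so calls here may not recur in other mice. Dpp4, with 52 counts in scKO and 64 in flox/flox, was limited by depth.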

Other observations

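Caveolin 1, the coat protein of surface pits in endothelial cells, fat cells and fibroblasts, had the lowest ratio among the tested genes in the lists of the members' relatives; in human cells it binds DPP4. Cav1 had 127 counts in scKO and 570 in flox/flox (−2.11, −2.40 to −1.84). The other genes of the same structure, chosen after this value was seen, did not show it: Cav2 had 313 counts in scKO and 351 in flox/flox (−0.11, −0.34 to 0.11), Cavin1 1384 counts in scKO and 1490 in flox/flox (−0.055, −0.16 to 0.051), Cavin2 778 counts in scKO and 714 in flox/flox (0.17, 0.027 to 0.32) and Cavin3 87 counts in scKO and 101 in flox/flox (−0.16, −0.59 to 0.26). The FPKM of Cav1 was 1.09 in scKO and 4.59 in flox/flox. Of the 15 endothelial markers counted above, which do not include Cav1, 6 had an interval above 0 and 0 one below. The cause of the low Cav1 ratio was not tested.

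Of 11 pairs of a member with another gene, compared within each library, 6 had an interval of the ratio of ratios below 1, 1 above 1 and 4 included 1. Gsn per Svil was higher, at 1.47 in scKO and 1.27 in flox/flox (ratio of ratios 1.16, 1.10 to 1.22). The intervals of Ackr3 per Cxcl12 (1.04, 0.846 to 1.27), Dpp4 per Fap (0.924, 0.554 to 1.54), Ly6a per Pecam1 and Clec3b per Dcn included 1. Among the lower pairs, Cd34 per Podxl stood at 0.682 in scKO and 1.21 in flox/flox (ratio of ratios 0.566, 0.479 to 0.669), and Ly6a per Ly6c1 stood at 0.360 in scKO and 0.524 in flox/flox (0.689, 0.558 to 0.850). These pairs were chosen after the values were seen, and the other lower pairs are Pdgfra per Pdgfrb, Pdgfra per Dcn, Cd34 per Pecam1 and Cd55 per Cr1l. For these 11 pairs, too, no share over pairs of other genes was computed.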
